A study of Danio rerio with 9 samples.

Results

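Among 9 zebrafish melanomas, 4 gave libraries with clear skeletal muscle RNA and 5 gave libraries with hardly any, and these muscle-containing and muscle-poor tumours are compared here. The sets were chosen by measured values: skeletal muscle genes made up at least 0.05% of the counts in R158, R159, R160 and R162 and less than 0.01% in R157, R161, R163, R164 and R165. Every fish came from the background p53-/-; mitfa:BRAFV600E; Na-/-, in which the melanocyte promoter mitfa drives a mutant BRAF kinase, and carried MiniCoopR, a vector that returns mitfa to pigment cells together with a second gene. That gene was CDK13 R860Q, a mutant transcriptional kinase, in 3 of the 4 muscle-containing tumours (R158, R159 and R160) and in 2 of the 5 muscle-poor ones (R157 and R161). It was EGFP, the control, in the muscle-containing tumour R162 and in the muscle-poor tumours R163, R164 and R165. Embryos received 20 ng/µL of vector DNA at the 1-cell stage and fish were kept at 20 per tank; the labels give no age. The deposited labels call all 9 samples melanoma, and none names muscle or the body site of a tumour.

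Skeletal muscle fibres are filled with sarcomeres, in which thick filaments of myosin pull on thin filaments of actin along the giant protein titin. Fibres also hold calcium-handling proteins, such as the pump that refills the sarcoplasmic reticulum and, in fish, abundant parvalbumins, and an energy system built on creatine kinase. In zebrafish the body wall muscle lies under the skin, so that a dissected skin tumour can bring muscle with it, and melanomas of this model can grow into muscle. These routes to muscle RNA cannot be told apart in a count table of whole tumours.

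The libraries, 1 per tumour, were made from RNA freed of ribosomal RNA, and reads were counted per gene name. Total counts were 6317580 to 9630197 in the muscle-containing and 5518472 to 15120176 in the muscle-poor tumours (exact two-sided permutation p = 0.286; the smallest p that 126 arrangements allow is 0.00794). The TMM factor, which scales a library for its composition, was lower in the muscle-containing set (0.868 ± 0.156, SD, n = 4) than in the muscle-poor set (1.14 ± 0.132, SD, n = 5; exact permutation p = 0.0397), and R162 had the lowest factor, 0.650. Small noncoding RNAs took 33.5% ± 6.27 and 26.7% ± 4.26 of the counts (SD, n = 4 and 5; exact permutation p = 0.0952). Their rows were picked by the start of the name, which also took in the protein-coding gene scarb1. This share, and the runs without these rows, are therefore not of small noncoding RNA alone. The human CDK13 row held 114 to 7239 reads in R860Q tumours and 0 to 5 in EGFP tumours. Nothing in the labels ties a tumour to a fish of its own, and the p-values cover only the variation among these 9 libraries. In bulk RNA, fewer cells of a type and less RNA per cell cannot be told apart.

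The 4 markers that name the set behaved alike, and as the basis of the choice their values are a description. Levels are normalised CPM, counts per 1000000 of the TMM-scaled library. Titin (ttn.2) stood at 66.4, 553, 333 and 121 CPM in R158, R159, R160 and R162, and at 12.2, 20.0, 3.63, 4.51 and 3.5 CPM in R157, R161, R163, R164 and R165. Parvalbumin pvalb3, a calcium buffer that speeds relaxation, stood at 11.7, 77.2, 154 and 18.8 CPM in the same 4 tumours and at 0.298 CPM or less in the others. The actin actc1b stood at 42.8, 536, 241 and 87.6 CPM against 0.291 to 2.98 CPM. The fast light chain mylpfa stood at 31.5, 135, 111 and 94.7 CPM against 0.146 to 1.57 CPM. For each of the 4 genes every muscle-containing tumour was above every muscle-poor one, and the gap was narrowest for ttn.2.

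The share of reads depended strongly on which genes were counted as muscle. A core of 41 skeletal muscle genes, trimmed of widely expressed members after their values were seen, took 0.0764% of the counts in R158 (95% exact binomial interval 0.0746 to 0.0781, 7355 reads), 0.610% in R159, 0.440% in R160 and 0.107% in R162. The same core took 0.00682% in R157 (0.00634 to 0.00732, 760 reads), 0.00290% in R161, 0.00195% in R163, 0.00178% in R164 and 0.00274% in R165. R158 is thus the tumour just inside the rule and R157 the one just outside it, 11.2-fold apart. Intervals cover counting error within 1 library only. Reads carried no molecular identifiers, so PCR copies could not be told apart and even that error may be larger. All 6 wider muscle lists together took 0.279 to 0.915% in the first set and 0.181 to 0.233% in the second, because genes such as fabp3, a fatty acid carrier, were high in every tumour (0.0502 to 0.167% of counts from this gene alone). On that wider measure the sets still did not overlap, but the muscle-poor tumours would not lie under 0.01%.

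**Figure D1:**
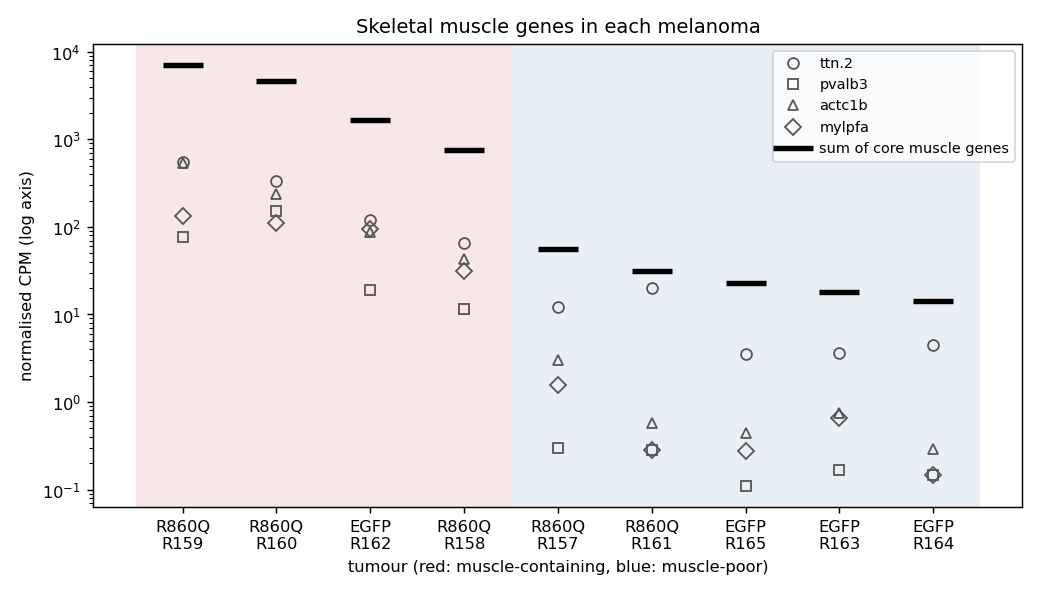
Normalised CPM (log axis) of the markers ttn.2, pvalb3, actc1b and mylpfa (open symbols) and of the 41 core muscle genes summed (bars) in each tumour, ordered by the sum within each set. The sum lies at 763 to 7080 CPM in the 4 muscle-containing tumours (red) and at 14.3 to 56.7 CPM in the 5 muscle-poor ones (blue).

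Myosin rows of fast fibres ranged more widely than those of slow fibres. The 7 fast myosin heavy chain rows together held 28.2, 117, 311 and 45.5 CPM in R158, R159, R160 and R162 against 0.426 to 3.88 CPM in the muscle-poor tumours, with myhc4 alone at 18.8, 106, 279 and 29.1 CPM. The 2 slow myosin rows held 3.32, 3.79, 2.91 and 3.18 CPM against 0 to 0.820 CPM, nearly level among the 4 tumours. These sums rest on few reads, 32, 26, 20 and 13 in the 4 tumours, beside 11 in the muscle-poor tumour R157. Near-identical myosin copies can share reads, so single rows such as myhz1.2, with no read in any tumour, are uncertain.

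Among calcium handling and energy genes, the parvalbumins, the pump gene atp2a1l and the creatine kinases showed the same division. Of the wider lists, 12 of 35 calcium genes and 20 of 30 energy genes did not. The 4 parvalbumins summed to 45.1, 677, 653 and 303 CPM in R158, R159, R160 and R162 and to 0.291 to 1.27 CPM in the muscle-poor tumours. The pump gene atp2a1l stood at 79.4, 986, 275 and 121 CPM against 0.412 to 0.895 CPM. The creatine kinases ckma and ckmb summed to 209, 2140, 1600 and 430 CPM against 1.60 to 12.8 CPM, with the upper end in R157. Troponin T (tnnt3b), which ties the thin filament to calcium, stood at 28.9 CPM in R158, 48.4 CPM in R162 and up to 202 CPM in R159, against 0.0824 to 2.01 CPM. R159 led for atp2a1l, tnnt3b and creatine kinase and R160 for fast myosin, so the ratio between muscle genes differed among the tumours.

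Of 184 listed muscle genes, 97 were higher in all 4 muscle-containing tumours than in all 5 others, a count that the choice of tumours fixes in part and that supports nothing. By role these were 13 of 26 thick filament genes, 17 of 27 thin filament genes, 23 of 30 titin and Z-disc genes, 23 of 35 calcium genes, 10 of 30 energy genes and 11 of 36 regulators. For the core it was 33 of 41 genes. The other 8 were acta1a, which overlapped (1.47 to 13.6 against 0.437 to 3.06 CPM), and mylpfb, tnnt3a, tnni2a.4, myhz1.2, myhz1.3, myhz2 and myha, each with no read in at least 1 muscle-containing tumour.

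Several genes with muscle names did not follow the sets. The hedgehog acyltransferase-like gene hhatla stood at 68.2, 58.7, 465 and 1.47 CPM in R158, R159, R160 and R162 beside 141 CPM in R157 and 3.35 CPM in R164, with high and low values in both sets. Filamin C (flncb), an actin cross-linker at the Z-disc, stood at 29.3 to 410 CPM against 87.9 to 377 CPM. Pyruvate kinase pkma stood at 283 to 442 CPM in R158, R159 and R160 and lower in R162, against 234 to 394 CPM. The muscle transcription factors mef2cb and mef2aa overlapped too, at 21.8 to 154 against 9.84 to 49.3 CPM and at 15.2 to 41.6 against 20.7 to 42.1 CPM. Myoglobin (mb), which stores oxygen, was highest in the muscle-poor tumour R165 at 23.5 CPM and stood at no more than 8.43 CPM in the muscle-containing set.

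Among regulators that mark muscle cells, the determination factor myod1 stood at 1.04, 4.52, 2.04 and 0.978 CPM in R158, R159, R160 and R162 and at 0.298 CPM or less in the others, too few reads for the test. Its relatives myog, myf5 and myf6 were at 0 reads in R162 and no higher than 1.17 CPM in any tumour. The ubiquitin ligase trim63a, known from muscle wasting in mammals, stood at 46.1, 16.0 and 14.9 CPM in R158, R160 and R162, and higher still in R159, against 1.37 to 4.85 CPM. These are values of listed muscle genes and carry no test.

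Outside the 6 muscle lists, 15066 genes were tested with edgeR's quasi-likelihood test, with the vector as a covariate and p-values adjusted over all 15169 tested genes. That pool held 103 listed muscle genes, whose small p-values follow in part from the choice of tumours and lower other adjusted p-values. At an adjusted p of 0.05, 14 genes (0.0929%) were higher in the muscle-containing tumours and 3 genes (0.0199%) were lower. The low-count filter was applied by muscle set, so a gene near 0 in one set could enter through the other alone. That was so for the higher genes txlnbb, cav3 and neu4, described below, and it fixed their direction in advance. Of the called higher genes, only corin had enough reads in enough muscle-poor tumours to enter without the muscle-containing set. The directions of the others were therefore not free, and the count of 14 is a description. At an unadjusted p of 0.05 the counts were 622 higher and 491 lower, where 753 would be expected in all by chance. The median log2 difference of these genes was 0 and 49.6% lay on the higher side. The tumours were split by RNA of the same libraries, so each p describes an association with muscle RNA and not an effect of a treatment.

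Those 17 calls depended on keeping the muscle genes in the table. With the muscle lists taken out before scaling and adjustment none of 15052 genes passed in edgeR (smallest adjusted p = 0.0728; 1115 genes at an unadjusted p of 0.05), and none passed without R162 (smallest adjusted p = 0.204; 1014 at an unadjusted p of 0.05), whereas DESeq2 on the full table called 95 higher and 59 lower, all 17 among them. All 17 kept their direction under these 3 settings, and with the muscle lists taken out none of their log2 differences moved by more than 0.01. For genes described below, the edgeR adjusted p was then 0.0814 for gstt2, 0.115 for corin and fam184b, 0.144 for neu4 and 0.166 for piezo1. Leaving out any 1 of the 9 tumours gave between 0 and 19 higher and between 0 and 4 lower calls.

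**Figure D2:**
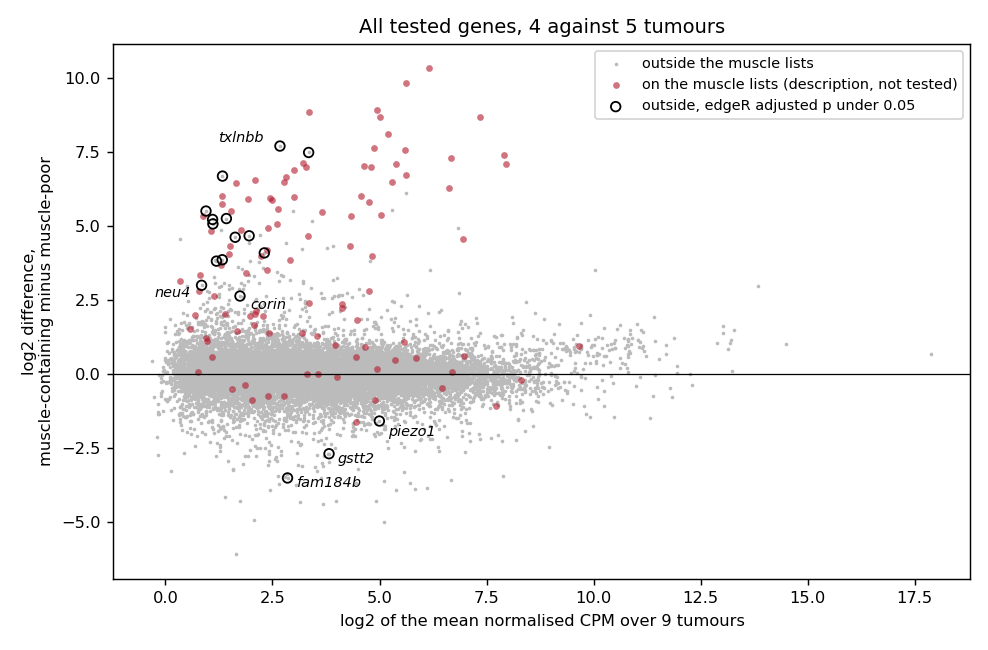
Log2 difference between muscle-containing and muscle-poor tumours against the log2 of the mean normalised CPM for each tested gene, from edgeR with the vector as a covariate. Genes of the muscle lists (red) reach the largest positive differences, and the 17 called genes outside the lists (circles) are 14 above and 3 below 0.

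Of the 14 higher genes, 8 are themselves known from muscle and had been left off the lists, so they are not independent of the split and are given as values. Beta-taxilin (txlnbb) stood at 4.87, 31.6, 15.7 and 5.14 CPM in R158, R159, R160 and R162, at 0.149 CPM in R157 and at 0 reads in the other 4 muscle-poor tumours. Caveolin 3 (cav3), the caveolin of the muscle cell membrane, stood at 1.76, 11.2, 5.67 and 3.91 CPM, with 0.0746 CPM or less in the muscle-poor set. Both followed the order of the muscle RNA itself among the 4 tumours.

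The glycogen-binding phosphatase subunit ppp1r3ab stood at 1.35 to 9.33 CPM in the muscle-containing tumours and at 0.224 CPM or less in the others. The nicotinamide riboside kinase nmrk2, a muscle enzyme of NAD synthesis, stood at 1.87 to 9.91 CPM against 0.165 CPM or less. The kinase gene alpk2 stood at 2.2 to 9.76 CPM against 0.291 CPM or less, and mustn1b, named for musculoskeletal tissue, at 3.84 to 12.2 CPM against 0.820 CPM or less. These 4 had no read in 1 or 2 of the muscle-poor tumours, so their ratios rest on a handful of reads.

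The actin row ACTC1_(1_of_many) was highest in R162 at 9.29 CPM and stood at 1.60 to 3.53 CPM in the other 3 muscle-containing tumours, against 0.224 CPM or less. Its reads may be shared with near-identical actins. Another parvalbumin, pvalb7, stood at 4.22 to 18.5 CPM against 0.247 to 1.15 CPM, and klhl43, of the kelch-like family, at 1.97 to 10.1 CPM against 0.109 to 0.597 CPM. The remaining called rows carry clone names, si:ch73-367p23.2, si:ch211-232h22.1 and CR847568.2, with log2 differences of 7.47, 4.66 and 3.81. The last of these and si:ch211-232h22.1 were highest in R162, at 10.8 and 20.8 CPM.

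Some of the called higher genes ran with the muscle RNA from tumour to tumour and some did not. The order R158, R162, R160, R159 from low to high, that of the core muscle sum, was kept by 6 of the 14 (42.9%). It was kept by 438 of all 15066 genes outside the lists (2.91%) and by 19 of 30 tested core muscle genes (63.3%). The core genes make up that sum, so their share was in part fixed in advance. The 6 called genes include txlnbb, cav3, ppp1r3ab and nmrk2, muscle genes left off the lists. Their share is therefore not independent of the split either and is a description. Clone names left out, the genes most alike to the core sum over the 9 tumours, by Pearson r of log2 CPM, were txlnbb (0.992), cav3 (0.991), ppp1r3ab (0.989), nmrk2 (0.979), klhl43 (0.977), the myosin kinase mylk4a (0.969), fhl1a (0.966) and cratb, a carnitine acetyltransferase (0.961). These coefficients describe 9 points that share a library each with the muscle reads, and the genes were picked for them. The called clone row si:ch73-367p23.2 had an r of 0.987. For cratb the levels were 20.0 to 25.7 CPM in the muscle-containing and 11.6 to 14.4 CPM in the muscle-poor tumours, a log2 difference of 0.82 ± 0.22 (SE) that was not called (edgeR adjusted p = 0.364).

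The called higher genes corin and neu4 had reads in every tumour. For neu4, however, no muscle-poor tumour had enough reads for the low-count filter. It entered through the muscle-containing set alone, which fixed its direction in advance. Its values of 0.224 CPM in R157 and 0.426 CPM in R161 were no higher than what a count of 0 allows. Corin, a membrane protease known for activating natriuretic peptide in mammalian heart, stood at 4.46, 4.66, 6.25 and 9.05 CPM in R158, R159, R160 and R162 and at 1.12, 0.569, 1.81, 1.02 and 1.15 CPM in R157, R161, R163, R164 and R165. Its log2 difference was 2.63 ± 0.40 (SE; edgeR adjusted p = 0.0235), with differences in mean log2 CPM of 2.37 among R860Q tumours and 2.62 among EGFP tumours. The sets did not overlap, and the highest value was in R162, which held less muscle RNA than R159 and R160. R162 also had the lowest TMM factor, 0.65, which raises its CPM, and the part of this in its rank was not tested. The Pearson r with the core sum was 0.882 for corin and 0.664 for neu4. Here and for gstt2 and piezo1 below, the EGFP difference rests on R162, the only muscle-containing EGFP tumour. These genes were picked by the fit over all 9 tumours, so differences by vector are a description. The sialidase neu4, which trims sialic acid from glycans, stood at 3.84, 1.46, 1.45 and 6.60 CPM against 0.224, 0.426, 0.659, 0.728 and 0.765 CPM. Its log2 difference was 2.99 ± 0.50 (SE; edgeR adjusted p = 0.0366), and R162 and R158, with the least muscle RNA of the 4, were the highest. For corin, by contrast, R158 was the lowest of the 4.

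The called gene with the smallest p on the lower side was gstt2, a theta-class glutathione transferase that conjugates glutathione to small reactive molecules. It stood at 1.24, 3.06, 3.78 and 3.67 CPM in R158, R159, R160 and R162 and at 16.3, 15.2, 27.2, 25 and 31.8 CPM in R157, R161, R163, R164 and R165. The log2 difference was -2.69 ± 0.37 (SE; edgeR adjusted p = 0.0134), with -2.58 among R860Q tumours and -2.86 among EGFP tumours. The sets did not overlap in either vector, with R162 alone on the EGFP muscle-containing side, and R158 had the lowest value.

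The stretch-activated ion channel gene piezo1 was lower as well. It stood at 13, 12.8, 14 and 19.6 CPM in R158, R159, R160 and R162 against 39.3, 56.7, 34.0, 45.4 and 52.6 CPM in R157, R161, R163, R164 and R165. The log2 difference was -1.59 ± 0.27 (SE; edgeR adjusted p = 0.0423), with -1.82 among R860Q and -1.14 among EGFP tumours, and the sets did not overlap. Over 20 other settings gstt2 passed in 14 (adjusted p from 9.69e-10 to 0.639), piezo1 in 8 (3.84e-05 to 0.257) and corin in 9 (6.82e-07 to 0.553), and neu4 passed in 5 of the 16 settings that tested it (0.00022 to 0.965). With 1 tumour left out, the call was lost without R157, R161 or R162 for gstt2, without any tumour other than R163 for piezo1 and without any other than R158 or R163 for corin. The call of neu4 was lost in all 5 of the runs without a tumour that tested it (R159, R160, R161, R162 or R164 left out).

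The remaining called lower gene, fam184b, did overlap. It stood at 45 CPM in R157, was next highest in R161, and stood at 1.02 to 1.09 CPM in the muscle-poor EGFP tumours, beside 1.97, 2.19, 2.18 and 0.245 CPM in R158, R159, R160 and R162. Its log2 difference of -3.51 ± 0.54 (SE; edgeR adjusted p = 0.025) passed in 8 of 20 other settings (adjusted p from 1.05e-05 to 0.503), and it was -2.22 without R157.

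Next in order of p, and not called, were sgcd, ostf1 and pygb. Delta-sarcoglycan (sgcd), a part of the dystrophin complex of the muscle membrane, stood at 9.54, 16.2, 9.60 and 6.36 CPM against 28.6, 51.5, 20.8, 16.4 and 29.8 CPM (log2 difference -1.78, edgeR adjusted p = 0.0729). The adaptor gene ostf1 stood at 47.4 to 57.1 CPM against 108 to 154 CPM (log2 difference -1.29, adjusted p = 0.0944). The brain-type glycogen phosphorylase pygb stood at 8.80 to 22.2 CPM against 28.5 to 48.2 CPM (log2 difference -1.53, adjusted p = 0.101). None of the 3 overlapped between the sets.

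**Figure D3:**
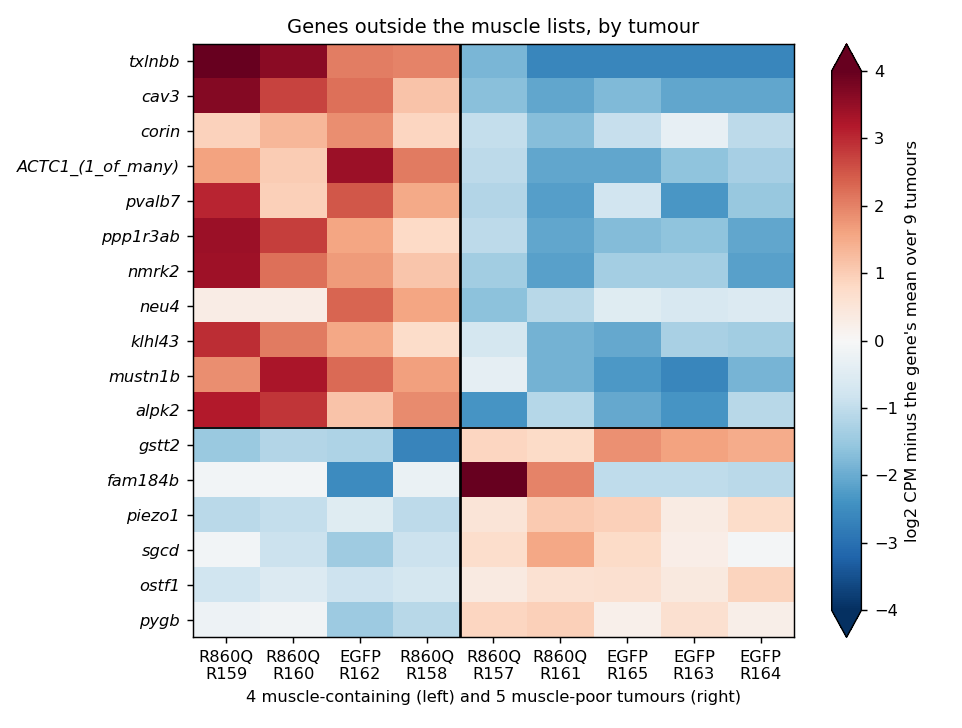
Log2 CPM of each named gene minus its mean over the 9 tumours, for 11 higher genes (above the line) and 6 lower genes (below it; sgcd, ostf1 and pygb were not called). The 4 muscle-containing tumours stand at the left; fam184b is highest in R157, at 45 CPM, and the row of txlnbb is highest in R159, at 31.6 CPM.

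Counted by overlap instead of p, 294 genes outside the lists (1.95%) were higher in all 4 muscle-containing than in all 5 muscle-poor tumours and 192 (1.27%) were lower in all 4. In a principal component analysis of the genes outside the lists the second component, with 19.4% of the variance, held the muscle-containing tumours at 34.1 to 48.5 and the muscle-poor ones at -81.8 to 6.0. These genes still hold muscle genes left off the lists, such as txlnbb, cav3 and nmrk2, and were filtered by muscle set. The overlap counts and the second component are therefore not independent of the split. The first component, 25.7%, set R162 (-106.5) and R164 (-52.7) apart from the rest whatever their muscle RNA. Both are EGFP tumours and had the fewest counts, 6317580 and 5518472. Their TMM factors, 0.65 and 1.251, were the lowest and the highest. The part of depth and composition in this component was not tested. Whether the muscle effect differs between vectors cannot be decided here, because R162 is the single muscle-containing EGFP tumour and an edgeR interaction term rests on it.

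**Figure D4:**
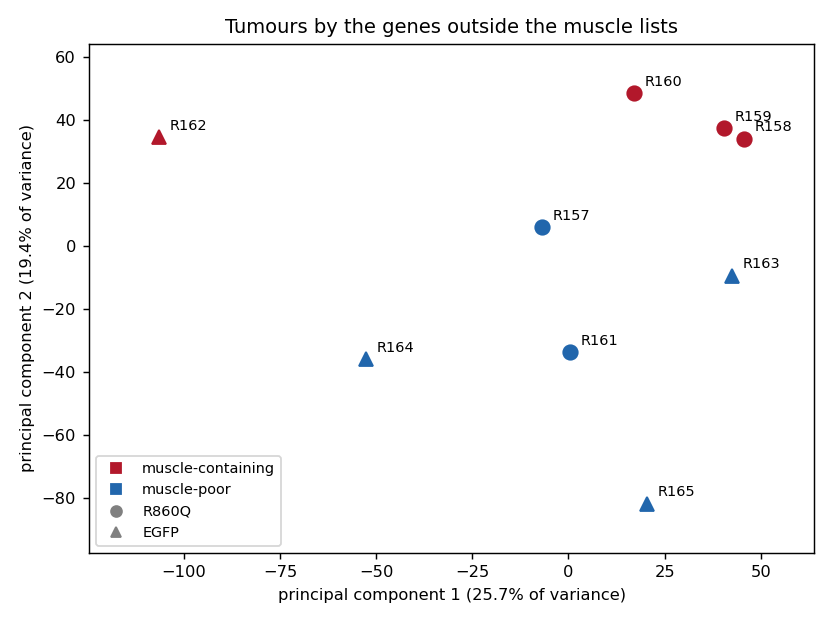
First and second principal components of log2 CPM over the 15066 tested genes outside the muscle lists, 1 point per tumour (circles R860Q, triangles EGFP; red muscle-containing, blue muscle-poor). On the second component the 4 muscle-containing tumours lie at 34.1 to 48.5, above all 5 others, and R162 stands alone at -106.5 on the first.

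No member of the 32 other gene lists passed the test, so the lists are described by their counts and medians beside the median of 0 over all genes. Several medians rested on single tumours, so each is followed by its range when each tumour is left out in turn. Fibroblast and matrix genes were on the lower side in 31 of 41 tested (median log2 difference -0.53), with medians from -0.83 without R161 to -0.21 without R162. Their summed level was 762 to 1110 CPM in the muscle-containing and 755 to 2290 CPM in the muscle-poor tumours. Examples were the collagen col5a2a at 6.74 to 16.4 against 12.3 to 57.5 CPM (edgeR adjusted p = 0.458) and pcolcea, which helps process procollagen, at 0.933 to 4.40 against 3.27 to 12.8 CPM (adjusted p = 0.474). Basement membrane genes were on the lower side in 18 of 22 (median -0.41; -0.68 without R161 to -0.03 without R162), with col18a1a at 1.02 to 4.89 against 4.78 to 32.4 CPM (adjusted p = 0.195). Smooth muscle and pericyte genes were lower in 15 of 20 (median -0.52; -0.86 without R157 to -0.14 without R162). Satellite cell genes, which mark muscle stem cells, were lower in 7 of 11 (median -0.26; -0.52 without R159 to -0.05 without R158).

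Tendon genes were on the lower side in 7 of 11 (median -0.37; -0.56 without R160 to 0.47 without R162). The tendon regulator mkxb stood at 88.3 CPM in R161 and at 1.56 to 7.22 CPM in the other 8 tumours. Bone, cartilage and scale genes were lower in 9 of 13 (median -0.95; -1.25 without R157 to -0.13 without R165), and the median was -0.19 with the muscle set as the only term, though their sum ran from 80.2 to 1000 CPM in the muscle-containing and from 201 to 692 CPM in the muscle-poor tumours. Heart muscle genes were nearly silent: 1 of 18 had enough reads, vmhc, at 10.1, 33.7 and 12.8 CPM in R158, R159 and R160, 0.245 CPM in R162 and 0 to 2.23 CPM in the muscle-poor set. Nerve and glia genes were even (11 of 21 higher, median 0.03; -0.23 without R161 to 0.17 without R162), and within them the myelin gene prx stood at 2.70, 26.8, 7.27 and 1.47 CPM in R158, R159, R160 and R162 against 0 to 1.2 CPM (adjusted p = 0.539). The Pearson r of prx with the core muscle sum was 0.863.

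Immune cell markers lay mostly on the lower side of the muscle-containing set. This held for 38 of 42 macrophage genes (median -0.52; -0.76 without R162 to -0.25 without R161) and 22 of 29 neutrophil genes (median -0.27; -0.60 without R159 to -0.13 without R165). It also held for 14 of 15 T and NK lymphocyte genes (median -0.48; -0.88 without R162 to -0.45 without R159) and 8 of 9 B lymphocyte genes (median -0.36; -0.80 without R159 to -0.11 without R162). The granulin grna, a growth factor precursor of macrophages, stood at 73.8, 34.1, 30.5 and 80.0 CPM in R158, R159, R160 and R162 against 114, 227, 99.0, 153 and 188 CPM in the muscle-poor tumours, without overlap (log2 difference -1.48, edgeR adjusted p = 0.385). The leucocyte gene lcp1 stood at 11.7 to 17.9 against 17.4 to 64.0 CPM. Summed over their lists the sets overlapped, at 1640 to 3090 against 1830 to 5800 CPM for macrophages and 294 to 743 against 307 to 986 CPM for T and NK cells. Mean log2 CPM relative to each gene's mean overlapped too. For macrophage genes it was -0.48, -0.83, -0.43 and 0.40 in R158, R159, R160 and R162. In R157, R161, R163, R164 and R165 it was -0.33, 0.49, -0.51, 0.71 and 0.98. For T and NK genes it was -0.69, -1.51, -0.54 and 0.88 against 0.11, -0.37, -0.73, 0.86 and 2.01.

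Keratinocyte genes were lower in 34 of 43 (median -0.35), yet their sum was 7680, 10900, 3080 and 2240 CPM in R158, R159, R160 and R162 and 2840 to 7950 CPM in the muscle-poor set. The median was -0.97 without R157 and 0.34 without R162. Of 22 mucous cell and ionocyte genes found, only 6 had enough reads for the test. All 6 were on the lower side (median -0.87; -1.21 without R157 to -0.36 without R165), among them the proton pump subunit atp6v1aa at 16.4 to 36.6 against 45.8 to 65.8 CPM (edgeR adjusted p = 0.361). That 1 gene supplied 55.4 of the list's 85.2 CPM in R163 and 65.8 of 201 CPM in R165. Red blood cell genes were on the higher side in 18 of 23 (median 0.47; -0.39 without R162 to 0.92 without R157), and among the R860Q tumours alone their median was -0.47.

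Among pigment cell genes, melanocyte genes were lower in 22 of 36 (median -0.17; -0.49 without R158 to -0.10 without R161), with summed levels of 6550 to 12300 against 9040 to 19900 CPM. Iridophore and xanthophore genes were lower in 19 of 30 (median -0.38; -0.50 without R158 to -0.20 without R161). For both lists the median stayed below 0 in 15 other settings. The pigment cell regulator mitfa stood at 63.2 to 189 CPM against 92.0 to 228 CPM. MiniCoopR also carries mitfa, so these reads may come from the vector as well as from the fish's own gene, and their parts were not tested. Within the list hps5, of the lysosome-related organelle pathway, stood at 18.1 to 25.5 against 27.6 to 65.7 CPM, without overlap (edgeR adjusted p = 0.336), and the melanocyte channel trpm1b at 181 to 513 against 141 to 213 CPM (adjusted p = 0.514). The neural crest and melanoma genes divided 11 higher to 14 lower (median -0.06; -0.39 without R161 to 0.21 without R162), with crestin, a zebrafish neural crest transcript that returns in melanoma, at 289 to 595 CPM against 40.5 to 423 CPM (adjusted p = 0.545). Genes of invasion and epithelial-mesenchymal transition were lower in 38 of 56 (median -0.24; -0.42 without R159 to -0.11 without R162). The transition factor snai2 stood at 277, 44.9, 79.5 and 192 CPM in R158, R159, R160 and R162 against 29.3 to 95.3 CPM (adjusted p = 0.562), and vimentin (vim) at 3.64 to 19.4 against 3.95 to 7.01 CPM (adjusted p = 0.514).

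Ribosomal protein genes lay above 0 in 74 of 75 cases (median log2 difference 0.91). The sum stood at 97400, 89400, 98500 and 228000 CPM in R158, R159, R160 and R162 and at 78100, 96700, 59200, 66100 and 35900 CPM in R157, R161, R163, R164 and R165. Examples were rps3 at 2240 to 5820 against 904 to 1830 CPM (edgeR adjusted p = 0.361) and rps26 at 842 to 2470 against 167 to 739 CPM (adjusted p = 0.409). R162, the library with the lowest TMM factor, was far above the rest, and without it the list's median was 0.10 (up to 1.16 without R161). Among the R860Q tumours alone it was 0.09. Nuclear genes of oxidative phosphorylation were on the higher side in 56 of 76 (median 0.22; -0.28 without R162 to 0.36 without R161). The part of R162's composition in these values was not tested.

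Stress and metabolic lists had medians near 0. Immediate early genes were on the higher side in 35 of 51 (median 0.18; 0.06 without R161 to 0.24 without R164), with the kinase sgk1 at 110, 52.9, 23.8 and 70.9 CPM in R158, R159, R160 and R162 against 7.67 to 25.8 CPM (edgeR adjusted p = 0.365). Cell cycle genes were lower in 49 of 69 (median -0.21; -0.39 without R161 to 0.11 without R157). Unfolded protein genes were lower in 28 of 40 (median -0.18; -0.39 without R159 to -0.06 without R162), with the chaperone hspa5 at 129 to 247 against 252 to 353 CPM (adjusted p = 0.553). Hypoxia and glycolysis genes had a median of -0.14 (-0.21 without R159 to -0.06 without R158). A member of that list, the glycolytic enzyme gapdh, stood at 9.75, 61.8, 251 and 21.8 CPM against 0.437 to 1.86 CPM (log2 difference 5.54, adjusted p = 0.0687), with R160 highest as for fast myosin. The Pearson r of gapdh with the core muscle sum was 0.959, near that of cratb above. The heat shock list had a median of -0.01 (-0.21 without R161 to 0.36 without R162), and in it hsc70 stood at 5.87 to 46.3 against 1.02 to 4.18 CPM (adjusted p = 0.41) and serpinh1b, a collagen chaperone, at 4.46 to 73.9 against 2.13 to 12.2 CPM (adjusted p = 0.354). Their Pearson r with the core muscle sum was 0.907 for hsc70 and 0.728 for serpinh1b. Hox genes, which record position along the body, were lower in 10 of 18 (median -0.46; -1.12 without R157 to 0.80 without R163), and the median was 0.71 when the vector was left out of the fit. Within them hoxc8a stood at 3.11, 4.37 and 4.07 CPM in R158, R159 and R160 and higher in R162, against 0 to 1.64 CPM (adjusted p = 0.501). The 13 mitochondrially encoded genes were listed at 0 in every tumour.

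**Figure D5:**
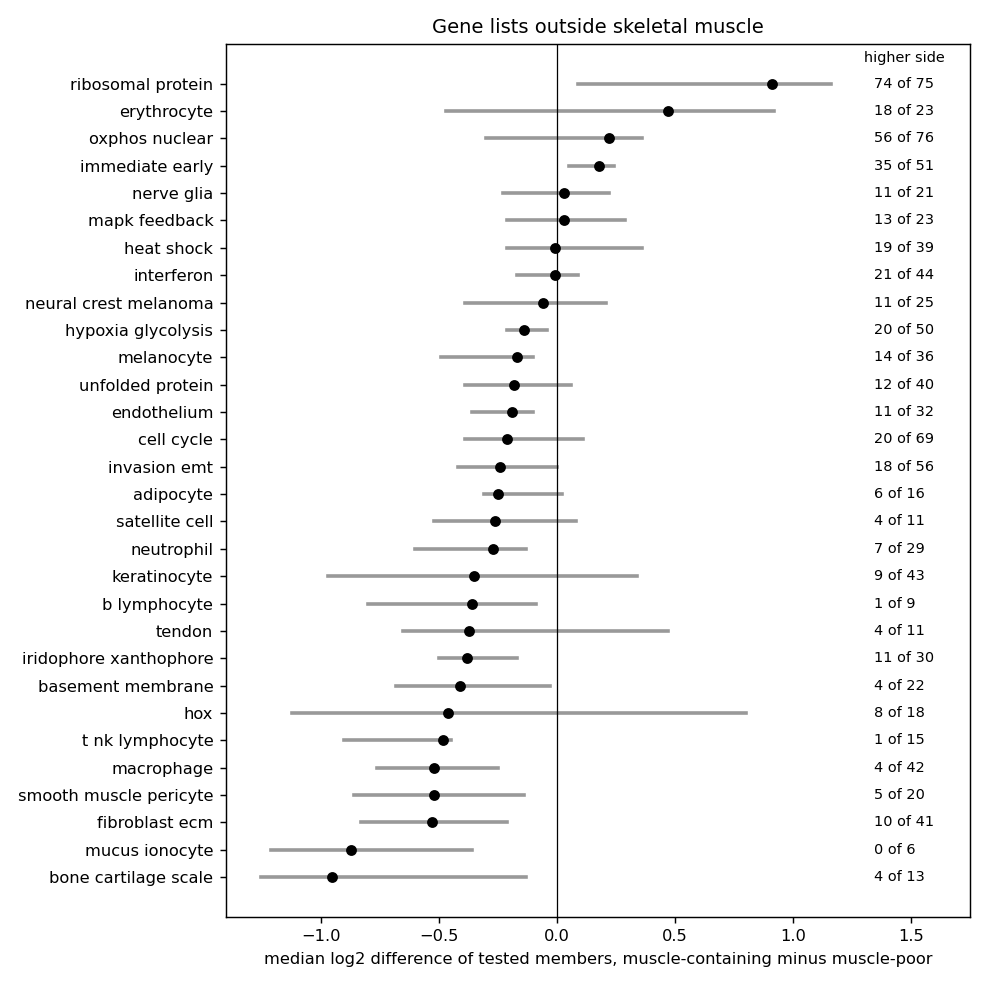
Median log2 difference (muscle-containing minus muscle-poor) of the tested members of each list outside skeletal muscle with at least 2 tested members, as points, with the lowest and highest median over 15 other settings as grey lines and the number of members on the higher side at the right. Ribosomal proteins (74 of 75) lie highest, at 0.91 with a range of 0.09 to 1.16, and the medians of 14 of the 30 lists change sign under at least 1 setting, among them those of red blood cell, keratinocyte, tendon and Hox genes.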

How the data were processed

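The authors deposited unnormalised read counts for 9 tumours, in 30649 named rows, of which 26068 had a read and 15169 were tested; Bowtie, HTSeq and danRer10 (GRCz10) appear in the submitters' processing notes, with versions and strand setting not given in the sources used here. Per the labels' protocols, RNA was ribodepleted and libraries were randomly primed (15 min fragmentation, 12 PCR cycles, 100-bp read pairs). No 2 libraries agreed within sampling noise, and rows that name no gene were left out.

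Counts were scaled by TMM in edgeR 4.0.16 (R 4.3.3), filtered with filterByExpr (minimum count 10, minimum total 15) and tested with the quasi-likelihood test with robust dispersion, vector plus muscle set, with Benjamini-Hochberg adjustment at 0.05. For log2 CPM the prior count was 2. Up to 3 counts are compatible with a count of 0, which is 0.164 to 0.734 CPM by tumour. The biological coefficient of variation was 0.499.

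The tumour sets, the 6 muscle and 32 other gene lists and the tests were chosen with earlier results of these data known. Named genes were up to 12 called genes per direction by p, filled to 6 where fewer were called, and 2 per list by p. The 4 markers, the 2 highest members of each muscle list and 8 genes most like the muscle sum were added. Clone names were kept apart among the called genes and left out of these 8. Other muscle genes, mitfa and those given under other observations were chosen after their values were seen. Alternatives were DESeq2's size factors, DESeq2 1.42.0, limma voom (limma 3.58.1), other filters, terms and row sets, and leaving out each tumour; the core muscle list and its profile were added after seeing the data. The tests were checked on simulated counts.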

Additional observations from a re-analysis of the deposited data

Results flagged for a closer look

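Single tumours stood far from the rest of their set in 10 of 206 sets of values examined, and chance alone gives about 1 in 20. Among muscle-linked genes these were txlnbb in R157 (0.149 CPM, the only muscle-poor tumour with reads) and alpk3a in R164 (0.873 CPM, high for its set). Among lower genes fam184b was low in R162 (0.245 CPM). These values of txlnbb and fam184b lay under what a count of 0 allows, 0.224 CPM in R157 and 0.734 CPM in R162. Tendon genes gave mkxb in R158 (1.56 CPM, low) and cilp in R159 (8.89 CPM, high). Matrix genes gave pcolcea in R161 (3.27 CPM, low) and col18a1a in R162 (4.89 CPM, high). The remaining values were tbx2b in R164 (34.1 CPM, low), the carotenoid-cleaving enzyme bco1 in R161 (236 CPM, high) and the replication gene orc1 in R163 (32.0 CPM, high). No named gene moved in opposite directions in the R860Q and the EGFP tumours without overlap.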

How the results depend on the processing

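The 14 higher and 3 lower calls outside the muscle lists became 14 and 3 with DESeq2's size factors, 13 and 3 without small noncoding rows, 14 and 3 with a stricter filter and 15 and 3 without robust dispersion. They became 0 and 0 with the muscle lists removed, 21 and 5 with the muscle set as the only term, 0 and 1 with the share of the 6 lists as a continuous term, 0 and 4 in the R860Q tumours alone, 21 and 5 with no filter, 95 and 59 with DESeq2 and 3 and 1 with voom. Leaving out 1 tumour gave 0 to 19 higher and 0 to 4 lower calls: 6 and 0 without R157, 19 and 1 without R158, 5 and 2 without R159, 6 and 1 without R160, 2 and 2 without R161, 0 and 0 without R162, 8 and 4 without R163, 5 and 1 without R164, and 8 and 1 without R165. These counts were not always of the same genes. Of the 17 main calls, 0 were called with the continuous term and 0 in the R860Q tumours alone. With the muscle set as the only term 13 were called, and with voom 3. It was 11 of the 16 tested without R158 and 3 of the 16 tested without R157. All 17 kept their direction in every run in which they were tested. The cause of the changed counts was not tested, except that the runs without a tumour and in R860Q alone had fewer samples. With the muscle lists removed, the log2 differences of the 17 moved by at most 0.01, and the adjustment no longer held the muscle genes. The vector-by-muscle term rests on R162 as the single muscle-containing EGFP tumour and could not be estimated without R162.

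The lowest share of a muscle-containing tumour was 1.2-fold the highest of a muscle-poor one over 6 lists, 1.16-fold over sarcomere lists, 1.54-fold without small noncoding rows and 11.2-fold over the core. Of the named genes mkxb alone changed sign: with 1 tumour left out the log2 difference of mkxb ran from -4.03 (without R162) to 0.02 (without R161), and it was -4.05 in the R860Q tumours alone. The depth limits genes near 0 in the muscle-poor set, where 1 read decides a ratio. No paired analysis was possible because the tumour numbers are not shared between groups.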

Other observations

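Chosen after their values were seen, and not called by edgeR, several genes outside every list separated the sets with reads in all tumours. The arrestin-domain gene arrdc3a stood at 244, 96.9, 176 and 264 CPM in R158, R159, R160 and R162 against 52.2 to 62.4 CPM in the muscle-poor tumours (log2 difference 1.77 ± 0.32, SE; adjusted p = 0.0652). Its paralog arrdc3b stood at 1190, 463, 380 and 736 CPM against 126 to 200 CPM (log2 difference 2.05 ± 0.39, SE; adjusted p = 0.0825). The transcription factor cebpd stood at 135, 237, 205 and 243 CPM against 38.2 to 106 CPM (adjusted p = 0.149). Neither arrdc3a nor arrdc3b was highest in R159, the tumour with most muscle RNA, and arrdc3a was lowest there among the muscle-containing set. For cebpd R159 and R162 were close, at 237 and 243 CPM. R162 had the lowest TMM factor, 0.65, which raises its CPM, and the part of this in these ranks was not tested.

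The olfactory receptor row olfcg4 stood at 34.3, 191, 31.7 and 181 CPM in R158, R159, R160 and R162 against 0 to 4.1 CPM (adjusted p = 0.129). The row CR318588.1 stood at 4830, 56600, 14100 and 34500 CPM against 2460 to 8880 CPM (adjusted p = 0.322), with R159 and R162 far above the other 7 tumours. The genes behind these rows can overlap other transcripts, and strand was not given, so their reads may not be their own.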
